A study of Mus musculus with 4 samples.

Results

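The genes described here are the core of the switch that takes a mouse oocyte out of prophase arrest. They comprise the kinase gene Cdk1, the cyclin B genes Ccnb1, Ccnb2 and Ccnb3, the phosphatase genes Cdc25a, Cdc25b and Cdc25c, and the inhibitory kinase genes Wee1, Wee2 and Pkmyt1. They were selected by symbol, a rule that uses no measured value, and all 10 were among the 16861 genes listed in each library. RNA-seq was performed on germinal vesicle (GV) oocytes, which are at or near the end of growth and still hold an intact nucleus. The 2 groups differ in chromatin configuration: non-surrounded nucleolus (NSN) oocytes have loose chromatin that leaves the nucleolus bare, and surrounded nucleolus (SN) oocytes have compacted chromatin that encloses it. The oocytes came from the antral follicles of 3-week-old C57BL/6J females. They were stripped of cumulus cells, stained with the DNA dye Hoechst in medium containing milrinone, a phosphodiesterase inhibitor that holds the arrest, and sorted by eye into the 2 groups. No group carried a genetic change or another treatment. Each of the 2 NSN and 2 SN libraries was made from a pool of 15 oocytes by Smart-seq2, in which cDNA is primed at the poly(A) tail and amplified by PCR. The labels do not say whether the pools came from separate animals, so the p-values below measure only the spread between libraries, which may be technical. The comparison asks whether the RNA of these regulators differed between the configurations.

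Cdk1 bound to cyclin B is M-phase promoting factor, the activity that drives breakdown of the nucleus and entry into meiotic metaphase. In the arrested oocyte the Wee kinases hold the complex inactive by phosphorylating Cdk1 in its ATP-binding site, and Cdc25 phosphatases remove these phosphates when meiosis resumes. The oocyte enters maturation without new transcription, so it depends on stored mRNAs. Some of these are stored with a short poly(A) tail and have it lengthened through a cytoplasmic polyadenylation element (CPE) in the 3′ UTR, which acts together with the polyadenylation hexamer near the cleavage site.

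The 3′ UTR of each gene's canonical transcript (GENCODE annotation of GRCm39) was searched on the sense strand for the CPE letters TTTTAT or TTTTAAT and for the hexamer letters AATAAA or ATTAAA, written as DNA. The 30-base windows below are shown because they hold the CPEs that lie close to a hexamer in the 2 most abundant transcripts, Ccnb1 and Wee2, and in the other cyclin B genes. They are exonic, in the 3′ UTR, and read 5′ to 3′ on the strand of the gene, with the CPE in capitals.
Wee2 CPE at chr6:40443691-40443720, plus strand: tttttaacataTTTTAATccagatcattgt
Wee2 CPE at chr6:40443718-40443747, plus strand: tgtaaataaagaTTTTATcttatccaaaga
Ccnb1 CPE at chr13:100915755-100915784, minus strand: ccaagtatctttTTTTATgtaattatttat
Ccnb1 CPE at chr13:100915283-100915312, minus strand: ctcatttgctgTTTTAATttatacatctga
Ccnb2 CPE at chr9:70315142-70315171, minus strand: atcctgtatgtaTTTTATtctagtttacat
Ccnb3 CPE at chrX:6845941-6845970, minus strand: tcttgaaattacTTTTATgaaagaagagaa
In the second Wee2 window the letters aataaa just before the capitals are the hexamer itself.

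Wee2 held 2 CPEs in the last 100 bases of its 3′ UTR, with starts 46 and 18 bases from the annotated end. Of the 9123 genes tested for expression whose canonical 3′ UTR had at least 100 bases, 2.82% held 2 or more CPEs in that window and 18.4% held at least 1. Ccnb3 held 1, 68 bases from the end, and the other 8 genes held none there. Ccnb1 has a longer 3′ UTR of 1028 bases with 4 CPEs and 5 hexamers, and 2 of its CPEs started 49 and 29 bases before a hexamer, in neither case the last hexamer of the UTR. Within 100 bases of any hexamer, Wee2 also held 2 CPEs, each of Cdk1, Ccnb2 and Ccnb3 held 1, and the Cdc25 genes, Wee1 and Pkmyt1 held none. In all, 46.0% of the 9123 genes held at least 1 such CPE and 23.5% held 2 or more. Cdc25a and Cdc25b, with 3′ UTRs of 2253 and 5624 bases, held 6 and 9 CPEs at a greater distance from a hexamer. Anywhere in the 3′ UTR, 67.9% of the 9123 genes held at least 1 CPE, and their median 3′ UTR length was 1315 bases. The length behind the deposited FPKM of Cdc25b was 3136 bases, shorter than this annotated 3′ UTR. A hexamer stood in the last 40 bases of 8 of the 10 genes, the exceptions being Cdc25a and Pkmyt1, and in 73.8% of the 9123 genes. These matches describe the annotated sequence. Which 3′ end the oocytes used was not measured here.

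**Figure D1:**
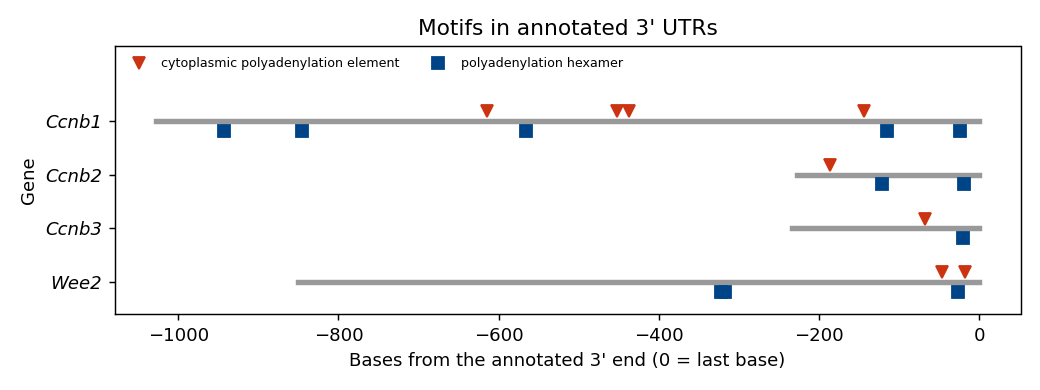
Positions of cytoplasmic polyadenylation elements (triangles) and polyadenylation hexamers (squares) in the annotated 3′ UTRs (grey bars) of the cyclin B genes and Wee2, with the distance in bases from the annotated 3′ end on the x axis. Both Wee2 elements lie in the last 100 bases beside its last hexamer, whereas those of Ccnb1 are spread between 144 and 615 bases from the end.

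The libraries held 17069772 to 17998361 read pairs. The deposited values are FPKM, read pairs relative to gene length and to the library total, so they give each RNA's share of the sequenced RNA and not its amount per oocyte. Differences were tested with limma on log2(FPKM + 0.5), and a gene was called when its p-value, adjusted over all 11672 genes tested, was under 0.05 and its fold change was at least 1.2. On this scale the median gene was 0.14 higher in SN, while the 100 most abundant genes held 39.8% and 38.8% of the read pairs in NSN and 35.5% and 35.4% in SN. The comparison was therefore also made after the libraries were scaled to a common median, which brought the median gene to 0.005. The oocyte markers were abundant in each library, with a summed FPKM of 26528 and 24906 in NSN and 17688 and 16341 in SN, and 8 of the 10 were called lower in SN, beside 1.98% of all genes. That number was 6 after median scaling (1.53% of all genes), 2 without SN replicate 2, and 0 without NSN replicate 1, with no filter on low values or with no variance trend, fits that called no gene at all. In pooled oocytes, fewer cells with an RNA and less of it per cell cannot be told apart. The highest was Zp3, a zona pellucida glycoprotein gene, at 7281 and 7063 FPKM in NSN and 5425 and 5208 in SN. Of 12 markers of granulosa and cumulus cells, 3 (Foxl2, Amh and Fst) were not among the listed genes. The other 9 summed to 10.2 and 15.0 FPKM in NSN and 15.3 and 14.8 in SN, of which the aromatase gene Cyp19a1 made up 5.81 to 8.38. These sums did not separate the groups, and their part in the results was not tested.

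The RNAs of Ccnb1 and Wee2 stood far above the rest. The mean FPKM over the 4 libraries was 891 for Ccnb1, 342 for Wee2 and 25.1 for Ccnb2, and each of these stood apart from the next in every library. The other 7 followed at 11.0 for Ccnb3, 8.18 for Pkmyt1, 7.69 for Cdc25a, 5.97 for Cdk1, 5.25 for Cdc25c, 4.30 for Wee1 and 2.68 for Cdc25b. Among these 7 the ranges of neighbours overlapped, so the order of neighbours was not resolved by 4 libraries. Genes further apart in the order could be separate, as Cdc25a (lowest value 5.77) was from Wee1 (highest value 5.26). Ccnb1 ranked between 70 and 85 and Wee2 between 179 and 211 among the listed genes. The FPKM of the kinase gene itself was thus much lower than that of its main cyclin. The cDNA was primed at the poly(A) tail, and how far FPKM depended on tail length was not measured. Levels per length depend on the length used. The length behind the deposited FPKM of Cdc25b was 3136 bases, against 7694 in the canonical transcript, and with the latter its mean was 1.09. The same change, chosen after seeing the data, exchanged the places of Cdc25a and Pkmyt1.

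**Figure D2:**
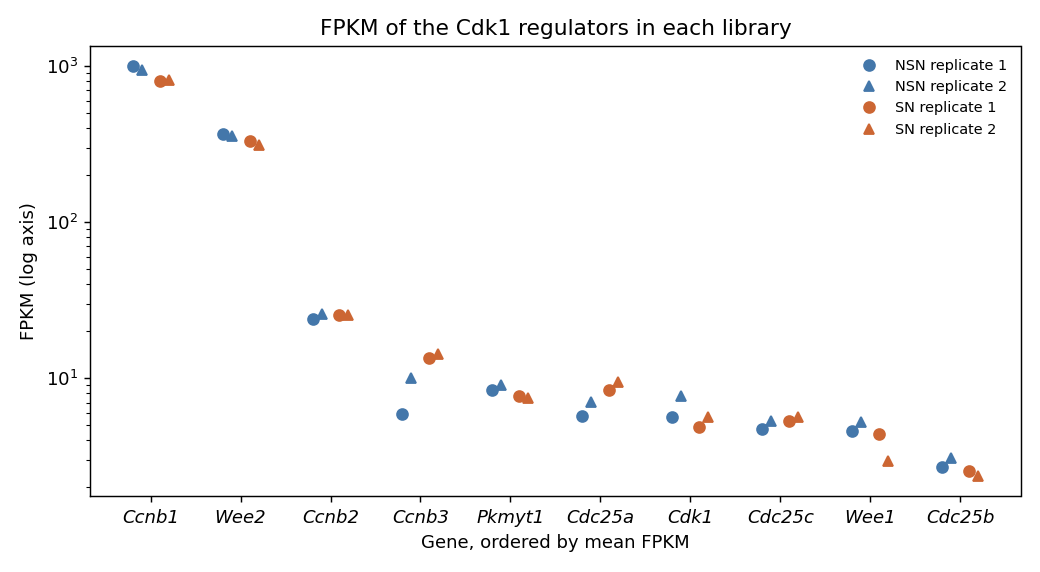
FPKM of the 10 genes in each of the 4 libraries on a log axis, ordered by mean FPKM, with NSN libraries in blue and SN libraries in orange (circle, replicate 1, and triangle, replicate 2). Ccnb1 and Wee2 lie above 300 FPKM in each library, and 7 genes lie under 15.

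None of the 10 genes was called between SN and NSN, against a background of 7.93% of all genes tested. Unadjusted p-values under 0.05 were found for 3 of them, Ccnb1, Ccnb3 and Cdc25a, compared with 31.7% of all genes. Both SN libraries lay above both NSN libraries for 2 of the 10 (44.8% of all genes) and below them for 5 (17.8% of all genes). The median log2 fold change of the 10 was -0.18, beside 0.14 for all genes tested. It was below 0 for 6 of the 10, compared with 33.3% of all genes, and after median scaling it was above 0 for 2 of the 10, compared with 50.6% of all genes. The genes that changed sign with the scaling were Ccnb2 and Cdc25c. No member was called after median scaling either, where 2.2% of all genes were called. On that scale, unadjusted p-values under 0.05 by limma were found for Cdk1, Ccnb1, Ccnb3, Cdc25a, Wee1, Wee2 and Pkmyt1. Of these, Ccnb3 and Cdc25a were higher in SN and the others lower. Over all 11672 genes tested, the number under 0.05 was 3165.

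**Figure D3:**
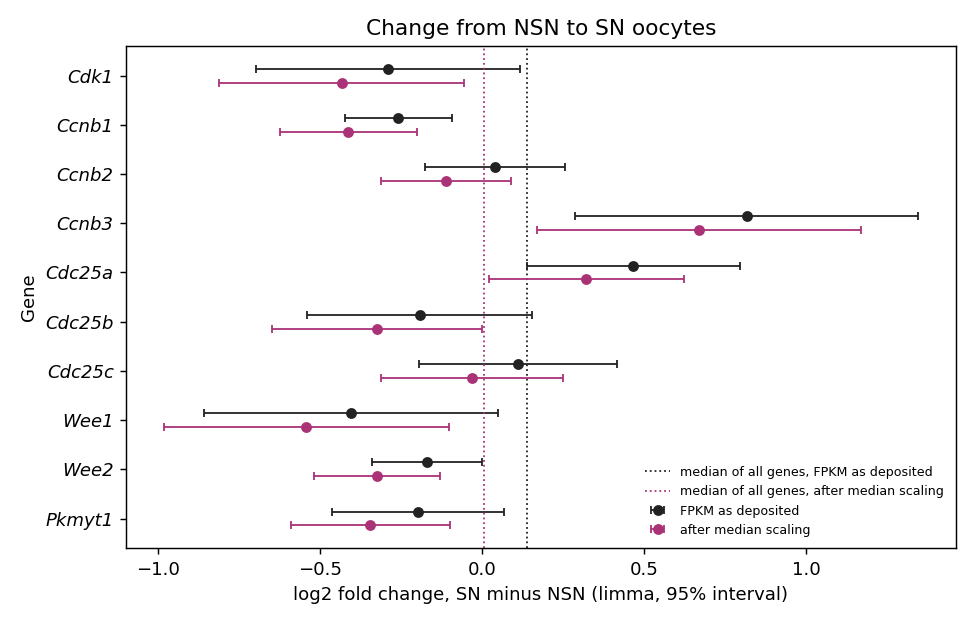
Log2 fold change (SN minus NSN) of each gene with its 95% interval from limma, for FPKM as deposited (black) and after median scaling (purple), with the median of all genes as dotted lines. Ccnb3 and Cdc25a lie to the right of 0 on both scales, and median scaling shifts each gene to the left.

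Cdk1 (GRCm39 chr10:69170976-69236595, minus strand), the catalytic subunit, was at 5.62 and 7.66 FPKM in NSN and 4.91 and 5.67 in SN. The groups overlapped, since the higher SN library lay just above the lower NSN library. Its log2 fold change was -0.29 ± 0.17 (SE, limma, adjusted p = 0.283), with a 95% interval from -0.70 to 0.12. Median scaling made it -0.43 (limma, adjusted p = 0.142), with a 95% interval from -0.81 to -0.05.

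Ccnb1 (GRCm39 chr13:100915153-100923116, minus strand) encodes the major cyclin partner of Cdk1 in the oocyte. Its FPKM was 998 and 944 in NSN and 800 and 823 in SN, a mean of 971 ± 38.1 against 812 ± 15.9 (SD, n = 2). Both SN libraries were lower than both NSN libraries, by a small step. From NSN to SN the log2 fold change was -0.26 ± 0.07 (SE), with a 95% interval from -0.42 to -0.09, and did not pass the threshold (limma, adjusted p = 0.0653). After median scaling it was -0.41, with an adjusted p of 0.0606 by limma. Ccnb1 has near-identical pseudogene copies, among them Ccnb1-ps with 99.2% identity over 1287 bases and Gm12856 with 98.1%. Their FPKM ranged from 0.518 to 1.25 and from 1.07 to 2.22, low beside the gene itself, but how many reads were lost from Ccnb1 because they also matched a copy was not measured.

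Ccnb2 (GRCm39 chr9:70314966-70328874, minus strand) encodes a second cyclin partner, which can drive resumption when cyclin B1 is missing. Relative to its mean it had the narrowest range of the 10 genes, at 23.9 and 25.7 FPKM in NSN and 25.6 and 25.4 in SN. The SN values lay between those of NSN, and the log2 fold change was 0.04 ± 0.09 (SE, limma, adjusted p = 0.796) with a 95% interval from -0.18 to 0.26. After median scaling it was -0.11.

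Ccnb3 (GRCm39 chrX:6845891-6907858, minus strand) encodes a cyclin that oocytes need to leave the first meiotic metaphase. It had the widest difference of the 10, with 5.93 and 9.99 FPKM in NSN and 13.5 and 14.4 in SN. Both SN libraries were higher, and the NSN libraries also differed from each other (471 and 817 read pairs, against 1053 and 1183 in SN). The log2 fold change was 0.82 ± 0.22 (SE) with a 95% interval from 0.29 to 1.34, and it did not pass the adjusted threshold (limma, adjusted p = 0.0671). After median scaling it was 0.67, with an adjusted p of 0.105 by limma.

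Within the cyclin B family, Ccnb1 made up 97.1% and 96.4% of the summed FPKM in NSN and 95.3% and 95.4% in SN. Ccnb2 made up 2.33% and 2.62% in NSN and 3.05% and 2.94% in SN. Ccnb3 made up 0.576% and 1.02% in NSN and 1.61% and 1.67% in SN. For each gene the shares in SN lay apart from those in NSN, lower for Ccnb1 and higher for Ccnb2 and Ccnb3. These shares carry no test. The sum itself was 1028 and 980 FPKM in NSN and 839 and 863 in SN.

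Cdc25a (GRCm39 chr9:109704583-109723540, plus strand) encodes a phosphatase that takes part in meiotic resumption and the metaphase transitions. Its FPKM was 5.77 and 7.01 in NSN and 8.47 and 9.51 in SN. The groups did not overlap, and SN was higher. The difference on the log2 scale was 0.47 ± 0.14 (SE), with a 95% interval from 0.14 to 0.79, and did not pass the threshold (limma, adjusted p = 0.0784). After median scaling it was 0.32, with an adjusted p of 0.163 by limma.

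Cdc25b (GRCm39 chr2:131027866-131044913, plus strand) encodes the phosphatase without which mouse oocytes stay arrested. It had the lowest level of the 10, at 2.71 and 3.08 FPKM in NSN and 2.56 and 2.37 in SN, from 134 to 173 read pairs. Both SN libraries lay slightly lower. On the log2 scale SN minus NSN was -0.19 ± 0.15 (SE, limma, adjusted p = 0.393), with a 95% interval from -0.54 to 0.15. The median-scaled value was -0.32 (limma, adjusted p = 0.185), with a 95% interval from -0.65 to 0.00.

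Cdc25c (GRCm39 chr18:34866031-34885472, minus strand) encodes the third phosphatase, which mice can do without. It was at 4.73 and 5.34 FPKM in NSN and 5.30 and 5.63 in SN, and the groups overlapped. The log2 fold change was 0.11 ± 0.13 (SE, limma, adjusted p = 0.583), with a 95% interval from -0.19 to 0.41, and -0.03 after median scaling. Its annotated exons share 31.4% of their bases with genes on the opposite strand, and those of its canonical transcript alone share 16.7%. The reads were counted without strand. By default featureCounts leaves a pair that matches exons of more than 1 gene unassigned, so its value may miss pairs from the shared stretch.

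The summed FPKM of the Cdc25 family was 13.2 and 15.4 FPKM in NSN and 16.3 and 17.5 in SN. Cdc25a made up 43.7% and 45.4% of it in NSN and 51.9% and 54.3% in SN. Cdc25b made up 20.5% and 20.0% in NSN and 15.7% and 13.6% in SN. Cdc25c made up 35.8% and 34.6% in NSN and 32.5% and 32.1% in SN. For each gene the shares did not overlap between the groups, as in the cyclin B family, higher in SN for Cdc25a and lower for the other 2. If the groups did not differ, 2 against 2 libraries would separate in either direction with a probability of 0.333. How often such shares separate in other gene families was not computed, so the separation is no result in itself. No test was made of the Cdc25 shares. The shares are parts of the same sum, so a higher share of Cdc25a goes with a lower joint share of the other 2. The separations are therefore not independent of each other. The FPKM of Cdc25b was lower in both SN libraries. That of Cdc25c was not, at 4.73 and 5.34 in NSN and 5.30 and 5.63 in SN.

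Wee1 (GRCm39 chr7:109721148-109747101, plus strand) encodes the inhibitory kinase of dividing somatic cells. Its FPKM was 4.62 and 5.26 in NSN and 4.37 and 2.96 in SN, so both SN libraries were lower but also differed most from each other. On the log2 scale the difference was -0.40 ± 0.19 (SE, limma, adjusted p = 0.195), with a 95% interval from -0.86 to 0.05. Median scaling made it -0.54 (limma, adjusted p = 0.125), with a 95% interval from -0.98 to -0.10.

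Wee2 (GRCm39 chr6:40412433-40443747, plus strand) encodes the inhibitory kinase of the oocyte, which keeps Cdk1 inactive during the prophase arrest. It was at 366 and 359 FPKM in NSN and 332 and 313 in SN. Both SN libraries were lower, by little more than they differed from each other. The log2 fold change was -0.17 ± 0.07 (SE, limma, adjusted p = 0.158), with a 95% interval from -0.34 to 0.00, and after median scaling it was -0.32, with an adjusted p of 0.0719 by limma.

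Pkmyt1 (GRCm39 chr17:23945254-23955710, plus strand) encodes the membrane-bound member of the family. It was at 8.45 and 9.11 FPKM in NSN and 7.70 and 7.46 in SN, both SN libraries being lower. Its log2 fold change was -0.20 ± 0.11 (SE, limma, adjusted p = 0.262), with a 95% interval from -0.46 to 0.07. The median-scaled value was -0.34 (limma, adjusted p = 0.0952), with a 95% interval from -0.59 to -0.10. Its exons overlap those of Paqr4 on the opposite strand over 62.5% of their bases, so its value may likewise miss pairs from there. Wee2 made up 96.2% to 96.8% of the summed FPKM of the 3 inhibitory kinase genes in the 4 libraries.

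Ccnb3 and Cdc25a lay near the threshold and passed it in some other fits, with the same direction in each fit run. Both were called when testing was limited to genes averaging at least 5 FPKM (adjusted p = 0.0251 and 0.0410 by limma, with 27.1% of all genes called). The same 2 genes were called with limma's voom on the read pairs (adjusted p = 0.0045 and 0.0170, with 19.7% of all genes called), and at an adjusted p under 0.1, where 20.3% of all genes were called. Without NSN replicate 2 both passed, with log2 fold changes of 1.17 and 0.60 (14.4% of all genes called), whereas without NSN replicate 1 the values were 0.46 and 0.34 and neither passed. Ccnb1 had an adjusted p of 0.0364 in the fit of genes averaging at least 5 FPKM and of 0.0174 with voom, both by limma, but its fold change was under 1.2. With voom after median scaling, Cdk1, Ccnb1, Wee1 and Wee2 were called lower and Ccnb3 higher, against 14.7% of all genes called.

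Ratios of 2 genes within a library do not move with the library total or with any scaling that multiplies a whole library, such as median scaling. Of 6 ratios examined, 2 separated the groups. Without any difference between the groups, 2 against 2 libraries separate in either direction with a probability of 0.333. The share over all pairs of genes was not computed, so the count is no result in itself. Ccnb1 to Ccnb2 was 41.7 and 36.8 in NSN and 31.3 and 32.4 in SN, a log2 difference of -0.30. Cdc25b to Cdc25a was 0.470 and 0.440 in NSN and 0.302 and 0.250 in SN, a log2 difference of -0.73. For Cdc25b to Cdc25a the gap between the groups was wider than the spread within either group, and for Ccnb1 to Ccnb2 it was about as wide as the spread within NSN. The exact permutation test of 2 against 2 libraries cannot give a two-sided p under 0.333, and the ratios are given as values without a test.

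The other 4 ratios overlapped between the groups. Ccnb1 to Cdk1 was 178 and 123 in NSN and 163 and 145 in SN. Wee2 to Wee1 ranged from 68.3 to 106, with its lowest value in NSN and its highest in SN. Wee2 to Cdc25b, the oocyte's main inhibitory kinase against the phosphatase needed for resumption, was 135 and 117 in NSN and 130 and 132 in SN. Pkmyt1 to Wee2 stayed between 0.0231 and 0.0254. The mean log2 ratios of the last 2 differed between the groups by 0.06 and -0.04, less than the spread between the NSN libraries.

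**Figure D4:**
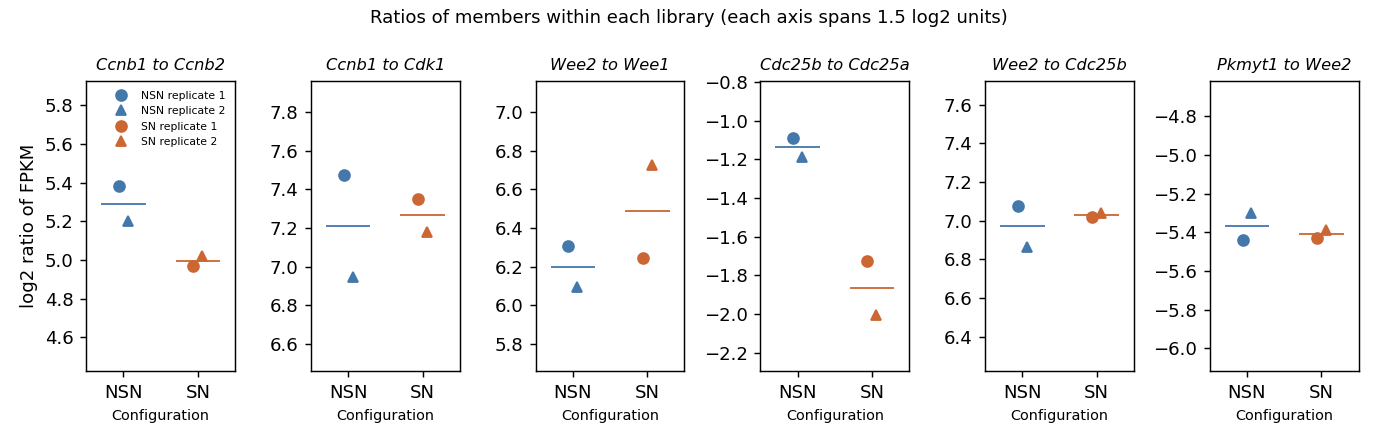
Log2 ratio of FPKM of 6 pairs of genes within each library, with NSN in blue, SN in orange, circles for replicate 1, triangles for replicate 2 and lines at the group means, each axis spanning 1.5 log2 units. The groups separate for Ccnb1 to Ccnb2 and for Cdc25b to Cdc25a and overlap for the other 4.

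Genes that act with this switch were examined as 4 lists, beside backgrounds of 5.95% of all genes called higher in SN and 1.98% called lower. Among the other cyclins and cyclin-dependent kinases, 9 of 12 were tested, and 1 was called lower and none higher. That gene was Ccno, an atypical cyclin gene, at 561 and 387 FPKM in NSN and 268 and 268 in SN. Both SN libraries were lower, and Ccno fell by 0.80 ± 0.16 (SE) on the log2 scale (limma, adjusted p = 0.0436). Ccne2, which encodes an E-type cyclin of S-phase entry, was the next most abundant at 32.0 and 24.5 FPKM in NSN and 29.2 and 21.2 in SN, with overlapping groups. The list's median log2 fold change was -0.36, and all 9 values lay below 0, compared with 33.3% of all genes. All 9 also did so after median scaling, quantile normalization and totals without the 100 most abundant genes. Left out in turn, NSN replicate 1, NSN replicate 2 and SN replicate 2 each left 8 of the 9 below 0. Ccna1 was not among the listed genes, and Ccnd1 and Cdk6 were under the filter. With no filter on low values, these 2 lay above 0 and the other 9 below.

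Of 8 genes for the CDK-activating kinase, the Cks proteins and the CDK inhibitors, 6 were tested, and 1 was called higher and none lower. Cks1b, which encodes a small subunit bound to CDK complexes, was at 84.5 and 87.8 FPKM in NSN and 111 and 109 in SN, and it rose by 0.35 ± 0.07 (SE) on the log2 scale (limma, adjusted p = 0.0454). Cdk7, the catalytic subunit of the CDK-activating kinase, was at 45.0 and 41.1 FPKM in NSN and 48.8 and 51.2 in SN. Its log2 fold change was 0.22 ± 0.09 (SE, limma, adjusted p = 0.153) and 0.06 after median scaling. The list's median was 0.33, with all 6 values above 0, compared with 66.7% of all genes. All 6 stayed above 0 under the same scalings, and 5 of the 6 did without SN replicate 2.

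The 11 genes for kinases, a kinase cofactor and 14-3-3 proteins that act on or upstream of Cdc25 and Wee1 were all tested. Of these, 1 was called higher and none lower, with a median log2 fold change of 0.06, or -0.09 after median scaling. Ywhah, which encodes the 14-3-3 eta protein, was at 25.2 and 29.7 FPKM in NSN and 43.2 and 42.8 in SN, and it rose by 0.65 ± 0.10 (SE) on the log2 scale (limma, adjusted p = 0.0364). The most abundant of the list were Ywhae, for 14-3-3 epsilon, and Aurka, for the Aurora A kinase. Ywhae was at 754 and 748 FPKM in NSN and 841 and 814 in SN, and Aurka at 395 and 377 in NSN and 396 and 410 in SN. For both genes the SN libraries lay above the NSN libraries by a small step, and the log2 fold changes of 0.14 and 0.06 became -0.01 and -0.09 after median scaling.

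The Greatwall kinase shields the substrates of Cdk1 by turning off the phosphatase PP2A-B55. Of the 9 genes of this branch 8 were tested, and 3 were called higher and none lower, with a median log2 fold change of 0.40. Mastl, the Greatwall kinase gene, was at 41.9 and 44.6 FPKM in NSN and 57.4 and 59.5 in SN, and rose by 0.43 ± 0.08 (SE) on the log2 scale (limma, adjusted p = 0.0419). Ppp2ca, for a catalytic subunit of PP2A, was at 2.72 and 2.68 FPKM in NSN and 4.92 and 4.74 in SN, a log2 fold change of 0.74 ± 0.13 (SE, limma, adjusted p = 0.0375). Ppp2r2a, for the B55 alpha subunit, was at 7.75 and 9.38 FPKM in NSN and 12.7 and 14.7 in SN, a log2 fold change of 0.65 ± 0.14 (SE, limma, adjusted p = 0.0447). The subunits of the phosphatase did not all lie on one side. Ppp2r1a and Ppp2r1b, for the scaffold subunits, and Ppp2cb, for the other catalytic subunit, are named here after their values were seen. Ppp2r1a was at 38.7 and 36.0 FPKM in NSN and 33.7 and 28.4 in SN, and Ppp2r1b at 2.87 and 2.27 in NSN and 1.80 and 1.89 in SN. Both were lower in both SN libraries, with log2 fold changes of -0.27 and -0.38 that did not pass the threshold (limma, adjusted p = 0.151 and 0.163). Ppp2cb was under the filter, at 0.391 and 0.228 FPKM in NSN and 0.160 and 0.151 in SN. Over these 4 lists, 6 genes were called on the deposited FPKM and none after median scaling, where the log2 fold changes of the 6 kept their direction, at -0.95 for Ccno and between 0.19 and 0.60 for the other 5. With voom after median scaling, where 14.7% of all genes were called, calls went both ways. The other cyclins and CDKs then had 3 called lower, the kinases and 14-3-3 proteins 1 higher and 1 lower, and the Greatwall and PP2A-B55 list 4 higher and 2 lower, the latter being Ppp2r1a and Ppp2r1b. Of the 6 genes that passed before scaling, none was called without NSN replicate 1, without SN replicate 1 or without SN replicate 2, and 5 of them, all but Cks1b, were called without NSN replicate 2.

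**Figure D5:**
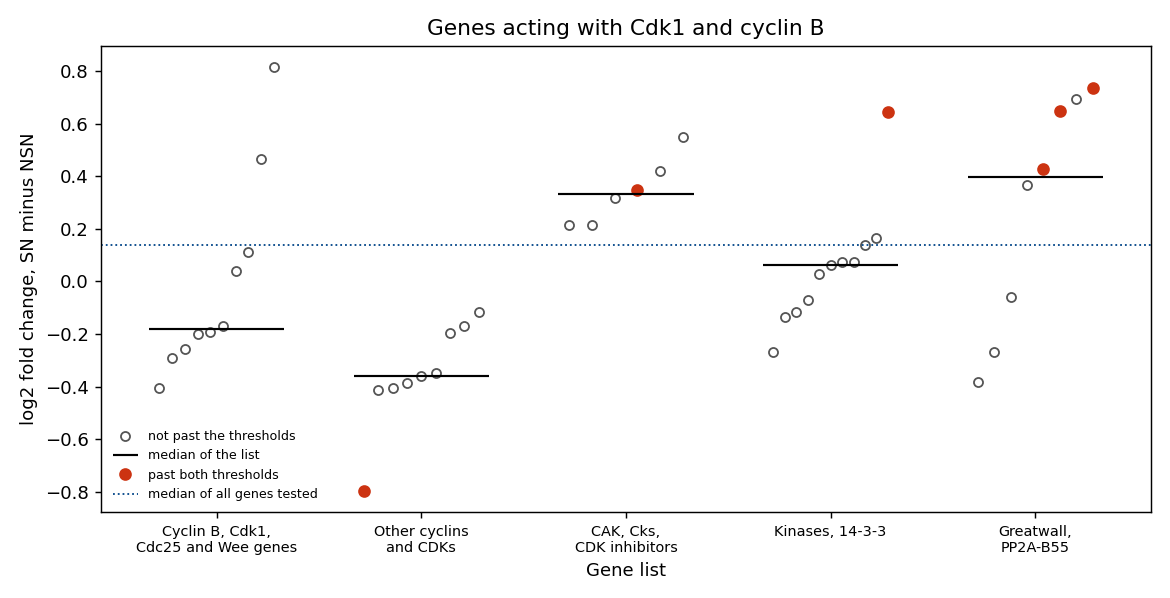
Log2 fold change (SN minus NSN) of the 10 genes and of the tested genes of the 4 lists, filled where a gene passed both thresholds, with the median of each list as a black line and the median of all genes tested as a dotted line at 0.14. The other cyclins and CDKs lie below 0, and the 3 filled points of the Greatwall and PP2A-B55 list lie between 0.43 and 0.74.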

How the data were processed

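The authors trimmed the reads with Trim Galore 0.6.10, aligned them with HISAT2 to the GRCm39 genome, used featureCounts to assign read pairs of mapping quality 10 or more to exons without strand, and deposited FPKM per gene. DESeq2 was used by the authors on counts that were not used here. From the deposited FPKM, library totals were recovered through 5 mitochondrial tRNA genes of known length, and whole read pairs (within 0.001) followed for 99.88% of the genes. Genes averaging 0.5 FPKM or more were fitted as log2(FPKM + 0.5) with limma 3.58.1 in R 4.3.3. The steps were lmFit, then eBayes with a variance trend, two-sided, with Benjamini-Hochberg adjustment over all genes tested. Fold changes on this scale understate the change of genes with low values. The fit was first run on simulated read pairs with changes larger than those of the 10 genes over the 4 libraries. That run does not show how well changes of their size are called. No interval for counting error is given, since PCR duplicates without molecular identifiers are not independent molecules.

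The groups came from the sample titles. The labels mention 3 samples per group, and the 2 per group with values were analysed here. Positions, 3′ UTRs and overlaps came from a GENCODE release on the same build that is later than the one the authors used, and near copies from BLAST 2.17.0. Tables and figures were made in Python 3.11.15 (pandas 2.3.3, matplotlib 3.10.9). The members, the lists and the ratios were chosen with earlier results of these data known. All 10 members are named, with the genes of each list past both thresholds and, where these were fewer than 2, the 2 most abundant of the list, the most abundant gene of each marker list, and genes that share sequence or exons with a member. The PP2A subunit genes Ppp2r1a, Ppp2r1b and Ppp2cb fall outside this rule. Alternatives were other pseudocounts, filters, scalings and thresholds, the replicate number as a block, a fit lacking the variance trend, voom on the read pairs, and each library left out in turn.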

Additional observations from a re-analysis of the deposited data

How the results depend on the processing

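With 2 libraries per group, the number of genes called depended on the processing. Of 11672 genes, 926 were called (695 higher and 231 lower in SN). The number was 0 with no filter on low values (4092 genes at an unadjusted p under 0.05 by limma), 1496 among genes averaging 5 FPKM or more, 257 with median scaling (78 higher, 179 lower), 230 with quantile normalization (74 higher, 156 lower), 248 when the 100 most abundant genes were left out of the totals (105 higher, 143 lower) and 0 with no variance trend (3449 at an unadjusted p under 0.05). It was 2300 with voom and total scaling and 1718 with voom and median scaling (749 higher, 969 lower). Leaving out 1 library, with the lone library of a group assumed to vary like the other group, gave 0 to 1685 calls: 0 without NSN replicate 1, 1685 without NSN replicate 2, 148 without SN replicate 1 and 11 without SN replicate 2. The cause was not tested.

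With the replicate number as a replicate block, 422 genes and 0 members were called. The deviations of libraries with the same number had a correlation of -0.07 across genes. With 2 libraries per group this cannot show whether they were prepared together, which the labels do not state.

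Of the members, 2 were called among genes averaging 5 FPKM or more, 2 with voom and total scaling, 5 with voom and median scaling and 2 at an adjusted p under 0.1, and 0 to 2 when 1 library was left out. Of 108 member fold changes in other fits, 92 kept their direction and their side of the thresholds, 9 passed the thresholds and 7 changed sign. The sign changes were those of Ccnb2, at -0.11 with median scaling, -0.11 with quantile normalization, -0.0488 without the 100 most abundant genes in the totals and -0.12 with voom and median scaling, and of Cdc25c, at -0.0308, -0.0467 and -0.0347 with median scaling, quantile normalization and voom with median scaling. With 1 library left out, 37 of 40 kept their direction and their side of the thresholds, though sizes moved. Ccnb2 ranged from -0.0105 to 0.0885, Cdk1 from -0.50 (without NSN replicate 1) to -0.0834 (without NSN replicate 2), Wee1 from -0.65 without SN replicate 1 up to -0.16 when SN replicate 2 was left out, Cdc25b from -0.27 (without NSN replicate 1) to -0.11 (without NSN replicate 2) and Cdc25c from 0.0301 (without NSN replicate 1) to 0.19 (without NSN replicate 2). The differences of the log2 ratios with 1 library left out ranged from -0.21 to 0.32 for Ccnb1 to Cdk1, from -0.0477 to 0.17 for Wee2 to Cdc25b and from -0.11 to 0.0283 for Pkmyt1 to Wee2. Those of Ccnb1 to Ccnb2 and Cdc25b to Cdc25a stayed below 0. Ratios were not recomputed under quantile normalization, which does move them.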
